A study of Mus musculus with 12 samples.

Results

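The genes described here are the 44 members of the protein folding, translocation and degradation machinery of the endoplasmic reticulum (ER), together with the sensors and transcription factors of the XBP1 and ATF6 branches of the unfolded protein response (UPR). They were chosen by symbol in the mouse annotation GENCODE M21, with a list drawn up by function, and all 44 were found among the 54232 gene IDs of the count table. Whole liver RNA was sequenced from 12 male C57BL6/J mice of the intragastric model of alcohol-associated steatohepatitis (ASH), with 1 library per mouse. The 5 pair-fed (PF) mice, which the labels call Control, received an isocaloric high-fat liquid diet for 8 weeks. The 7 alcohol-fed (AF) mice, labelled Alcohol, received a high-fat liquid diet with ethanol that reached 27 g/kg/day, and a weekly binge of 5 g/kg. The paper describes a lead-in on solid Western food rich in saturated fat and cholesterol, or on chow. Solid food also supplied part of the calories during the liquid feeding. The labels give an age of 8 weeks for both groups, and name no genetic change. Tissue was taken 1 day after the final binge, so the levels describe that time of the binge cycle. The labels do not tie the mice to cages or sequencing batches, so these could not be examined.

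The ER is where the liver folds the plasma proteins that it secretes. Nascent chains enter through the Sec61 channel, are glycosylated, and fold with the help of the Hsp70-type chaperone BiP, the Hsp90-type chaperone GRP94, disulfide isomerases and the lectins calnexin and calreticulin, and chains that fail to fold are pulled back to the cytosol for ER-associated degradation (ERAD). When unfolded protein builds up, the sensor IRE1 (gene Ern1) splices the mRNA of Xbp1, and ATF6 is cleaved to release a transcription factor, and both raise the genes of chaperones and of ERAD. PERK, the other sensor, acts through translation and ATF4 and raises a different group of genes, with CHOP (gene Ddit3) among them. Splicing of Xbp1 and cleavage of ATF6 do not show in counts per gene.

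A sequence feature shared by a number of these genes is the ER stress response element (ERSE), the site of ATF6 with NF-Y, and it can be read in their promoters. A window of 250 bases before to 50 bases after the transcription start was at hand from RefSeq (GRCm38.p6) for 38 of the 44 genes (not for Atf6, Derl1, Hyou1, Manf, Sec61a1 and Ssr2). The ERSE was searched as CCAAT and CCACG with any 9 bases between them, its second form ERSE-II as ATTGG and CCACG with 1 base between them, and the core of the UPR element as TGACGTGG, each on both strands. ERSE-II shares both of its half-sites with the ERSE, read on one strand or the other, but at a different spacing. An ERSE was present in the windows of 9 of the 38 genes, against 0.119% of all 32851 windows of that length. These were Hspa5, Hsp90b1, Calr, Canx, Pdia6, Dnajc3, Creld2, Derl3 and Syvn1. The units differ, genes against windows, and a gene can have several windows. The 39 windows with an ERSE belonged to 37 genes, these 9 among them. ERSE-II was present in Herpud1 and Dnajb11, against 0.0365% of all windows, and the core of the UPR element in Vcp, against 0.676%. The cyclic AMP response element TGACGTCA, searched for comparison, was in none of the 38 and in 1.79% of all windows. Shown here in the direction of transcription, with the fixed bases of the motif in capitals, are the stretches around the matches of the main chaperones, of the most variable gene (Derl3) and of the gene that fell most (Herpud1). They lie at chr2:34772017-34772051 on the plus strand for Hspa5, chr10:86705525-86705664 on the minus strand for Hsp90b1, chr8:84847067-84847101 on the minus strand for Calr, chr15:88819512-88819546 on the plus strand for Creld2, chr10:75893234-75893268 on the plus strand for Derl3 and chr8:94386369-94386395 on the plus strand for Herpud1.
Hspa5: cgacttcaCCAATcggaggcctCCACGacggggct
Hsp90b1: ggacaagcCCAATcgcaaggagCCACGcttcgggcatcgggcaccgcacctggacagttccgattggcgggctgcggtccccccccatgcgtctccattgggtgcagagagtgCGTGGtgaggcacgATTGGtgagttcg
Calr: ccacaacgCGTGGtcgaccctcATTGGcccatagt
Creld2: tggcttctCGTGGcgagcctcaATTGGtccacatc
Derl3: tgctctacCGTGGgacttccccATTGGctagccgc
Herpud1: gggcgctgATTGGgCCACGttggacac
Hsp90b1 holds 2 matches in opposite orientations, and in Calr, Creld2 and Derl3 the element runs against the direction of transcription. A match of letters describes the sequence and does not show that a factor is bound.

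Few of the 44 genes were called, and more of them fell than rose. On CPM (counts scaled to a fixed library size with edgeR's TMM factors), 1 gene was higher (Dnajc10) and 4 were lower (Herpud1, Edem1, Derl2 and Sec62) at an adjusted p under 0.05 in edgeR's quasi-likelihood test, and 39 did not pass. All 44 had enough reads to be tested, from 2202 reads for Derl3 to 741268 for P4hb over the 12 libraries. In the same test 22.0% of the 14168 genes tested were higher and 17.8% were lower, next to 1 of 44 (2.27%) and 4 of 44 (9.09%) here. The median log2 fold change was -0.11 over the 44 genes and 0.04 over all genes tested, and 32 of the 44 were below 0. Only Derl2 had AF values that all lay outside the PF range, whereas 17.7% of all genes tested had groups that did not overlap. Of the 9 genes with an ERSE 0 passed in this edgeR fit with TMM, where Calr and Canx had an unadjusted p under 0.05. DESeq2 called these 2 lower, and limma-voom with sample quality weights called them and Dnajc3 lower. In other edgeR fits Derl3 was called higher on library totals without TMM factors, and Calr, Canx and Pdia6 lower with the replicate number as a block. Fewer cells of a type and less RNA per cell cannot be told apart in whole tissue.

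These counts depended on the scaling and on the weight given to single libraries. The TMM factors were 0.832 to 0.901 for PF and 0.880 to 1.36 for AF livers, and on library totals without them 14 of the 44 genes were higher and 1 (Herpud1) was lower, next to 45.6% and 6.62% of all genes tested. On that scale the median log2 fold change was 0.21 for the 44 genes and 0.40 for all genes, so the 44 lay below all genes by 0.19 on library totals and by 0.15 with TMM (difference of medians). Limma-voom with sample quality weights gave 15 lower genes and 1 higher gene. It also called more of all genes tested, in both directions, than edgeR with TMM did. In that fit the median log2 fold change of the 44 minus that of all genes was -0.31, next to -0.15 in edgeR with TMM. The 44 thus lay further below all genes in limma-voom. Whether the larger count of lower genes is specific to the 44 was not tested.

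**Figure D1:**
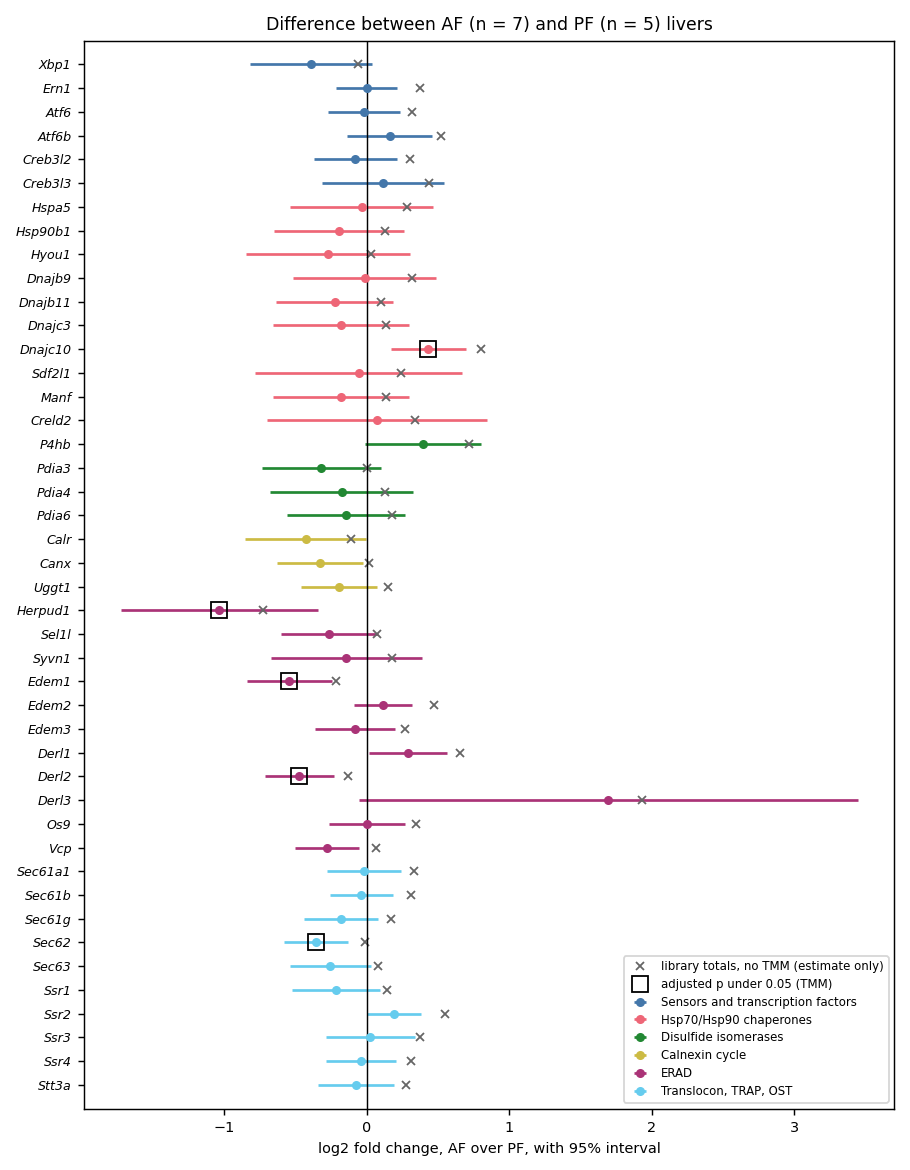
Log2 fold change of AF (n = 7) over PF (n = 5) livers for each of the 44 genes, coloured by function, with its 95% interval from edgeR with TMM scaling; crosses are the estimates on library totals and squares mark an adjusted p under 0.05. With TMM most estimates lie left of 0 and 5 genes carry a square, whereas all 44 crosses sit further right.

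The 6 sensors and transcription factors did not pass the test in edgeR with TMM on all livers or in DESeq2. In that edgeR fit 0 of them had an unadjusted p under 0.05, whereas limma-voom with sample quality weights called Xbp1 lower. On library totals, where 45.6% of all genes tested were higher, 4 of the 6 were called higher in edgeR. These were Ern1 at 0.37, Atf6 at 0.32, Atf6b at 0.52 and Creb3l3 at 0.44 on the log2 scale (adjusted p in edgeR 0.0423, 0.0163, 0.0265 and 0.0181). Xbp1, the factor made active by IRE1 splicing (ENSMUSG00000020484, chromosome 11, 5520659 to 5525893), was at 355, 376, 324, 289.6 and 314 CPM in PF replicates 1 to 5, and AF livers ranged from 174 to 447 (median 223) CPM. The 6 AF livers other than replicate 6 were below every PF liver, and AF replicate 6, at 447 CPM, was above every PF liver. The difference was not past the threshold (log2 fold change -0.39 with SE 0.198, adjusted p in edgeR 0.132). Without AF replicate 6 the log2 fold change was -0.59 (adjusted p in edgeR 0.00189). The call also depended on the model. With all livers kept, limma-voom gave -0.48 (adjusted p 0.00929), and edgeR with the replicate number as a block gave -0.59 (adjusted p 0.00929). With TMM, Ern1, the gene of IRE1, had 0.00 on the log2 scale (95% interval -0.21 to 0.22) and Atf6 had -0.02 (95% interval -0.27 to 0.24). Atf6b, the close relative of Atf6, and Creb3l2, a related membrane-bound factor, had values of 0.16 and -0.08. Creb3l3, a factor of the same family that is enriched in hepatocytes, had 0.12, and its highest AF values were 245 CPM in replicate 6 and 200.4 CPM in replicate 7 against 189 CPM in the highest PF liver.

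Of the 10 chaperones and their partners in the ER lumen 1 rose (Dnajc10) and the others did not pass the test. Of all genes tested with TMM 22.0% were higher and 17.8% were lower. Hspa5, the gene of BiP (ENSMUSG00000026864, chromosome 2, 34771970 to 34777547), is the classical target of ATF6. Its levels were 1142, 1479.9, 1333, 1881 and 1849 CPM in PF replicates 1 to 5 and ranged from 866 to 2144 (median 1411) CPM in AF livers. The groups overlapped widely, with 4 of the 7 AF livers inside the PF range, 1 above it and 2 below it. Its log2 fold change was -0.03 (95% interval -0.54 to 0.47, adjusted p in edgeR 0.918). Hsp90b1, the gene of GRP94 (ENSMUSG00000020048, chromosome 10, 86690209 to 86705509), had a mean of 1598 CPM in PF (SD 277, n = 5) and of 1398 CPM in AF livers (SD 379, n = 7) (log2 fold change -0.19 with SE 0.212, adjusted p in edgeR 0.488). No AF liver was above the highest PF liver for Hsp90b1, and AF replicates 1 and 3, at 883 and 891 CPM, were below the lowest. Hyou1, an exchange factor for BiP, had a log2 fold change of -0.27 and Dnajb9, a J protein that is a sensitive target of XBP1, had -0.01 (adjusted p in edgeR 0.435 and 0.971). The J proteins Dnajb11 and Dnajc3, which bring substrates to BiP, had -0.22 and -0.18 (adjusted p in edgeR 0.360 and 0.540). For Manf, a secreted ER stress protein, the value was -0.18 (adjusted p in edgeR 0.540), and its exons overlap those of Rbm15b on the same strand and of Dcaf1 on the other, so part of its reads is uncertain.

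Sdf2l1 and Creld2, small lumenal proteins that respond strongly to ER stress, had the widest spread of the chaperone group relative to their AF means. Sdf2l1 was at 16.2, 30.1, 35.2, 38.7 and 45.8 CPM in PF replicates 1 to 5 and ranged from 12.9 to 42.6 (median 40.7) CPM in AF livers. The Sdf2l1 change was -0.05 on the log2 scale (95% interval -0.78 to 0.67). Creld2 was at 26.3, 48.3, 37.5, 58.1 and 48.5 CPM in PF livers and ranged from 18.4 to 96.2 (median 40.2) CPM in AF livers. The Creld2 change was 0.07 on the log2 scale (95% interval -0.70 to 0.84). AF replicates 1 and 3 were the lowest livers for both genes, under the PF minimum, and AF replicate 6 was the highest for Creld2. Dnajc10, a J protein that reduces disulfides of misfolded chains (ENSMUSG00000027006, chromosome 2, 80315466 to 80354043), was the exception in this group. It was at 45.2, 41.6, 50.6, 51.8 and 62.3 CPM in PF replicates 1 to 5 and ranged from 58.6 to 89.7 (median 65.0) CPM in AF livers. The rise was called (log2 fold change 0.43 with SE 0.123, adjusted p in edgeR 0.0136), with 5 of the 7 AF livers above every PF liver. Dnajc10 kept this call in all 22 alternatives tried.

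Of the disulfide isomerases, P4hb stood apart from the others. P4hb, the gene of protein disulfide isomerase and a subunit of prolyl 4-hydroxylase and of the triglyceride transfer protein MTP (ENSMUSG00000025130, chromosome 11, 120560298 to 120573253), was at 1730.0, 1754, 1885, 1976 and 1963 CPM in PF replicates 1 to 5 and ranged from 1632 to 3264 (median 2244) CPM in AF livers. In AF livers 5 of 7 were above every PF liver, whereas AF replicate 1 was below all of them. The difference was not past the threshold (log2 fold change 0.39 with SE 0.188, adjusted p in edgeR 0.110). Without AF replicate 1 it was (log2 fold change 0.48, adjusted p in edgeR 0.0440), and on library totals P4hb was called higher with a larger change (log2 fold change 0.72, adjusted p in edgeR 0.00129). Pdia3, the isomerase that works with calnexin, had a log2 fold change of -0.32, and Pdia4 and Pdia6, both partners of BiP, had -0.17 and -0.14 (adjusted p in edgeR 0.205, 0.573 and 0.573).

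The 3 genes of the calnexin cycle lay below the PF level without passing the main test (edgeR with TMM, all livers, no block). Calr, the gene of calreticulin (ENSMUSG00000003814, chromosome 8, 84841850 to 84846934), was at 1023, 1173, 1309, 1459 and 1519.5 CPM in PF replicates 1 to 5 and ranged from 613 to 1278 (median 1019) CPM in AF livers. For Calr 4 of the 7 AF livers lay under the PF minimum and 3 were inside the PF range (log2 fold change -0.43 with SE 0.198, adjusted p in edgeR 0.101). Canx, the gene of calnexin, had -0.33 (SE 0.139, adjusted p in edgeR 0.0773). DESeq2 called both Calr (-0.45, adjusted p = 0.0460) and Canx (-0.35, adjusted p = 0.0256) lower, as did edgeR with the replicate number as a block. Canx was past the threshold as lower without PF replicate 1 (adjusted p in edgeR 0.0432) and without AF replicate 5 (adjusted p in edgeR 0.0420). Uggt1, which senses unfolded glycoproteins and sends them back to calnexin, had -0.19 (adjusted p in edgeR 0.227). For all 17 chaperone, isomerase and calnexin cycle genes, called folding genes from here on, the upper end of the 95% interval lay below a log2 fold change of 1, and on library totals this held for 15 of the 17.

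**Figure D2:**
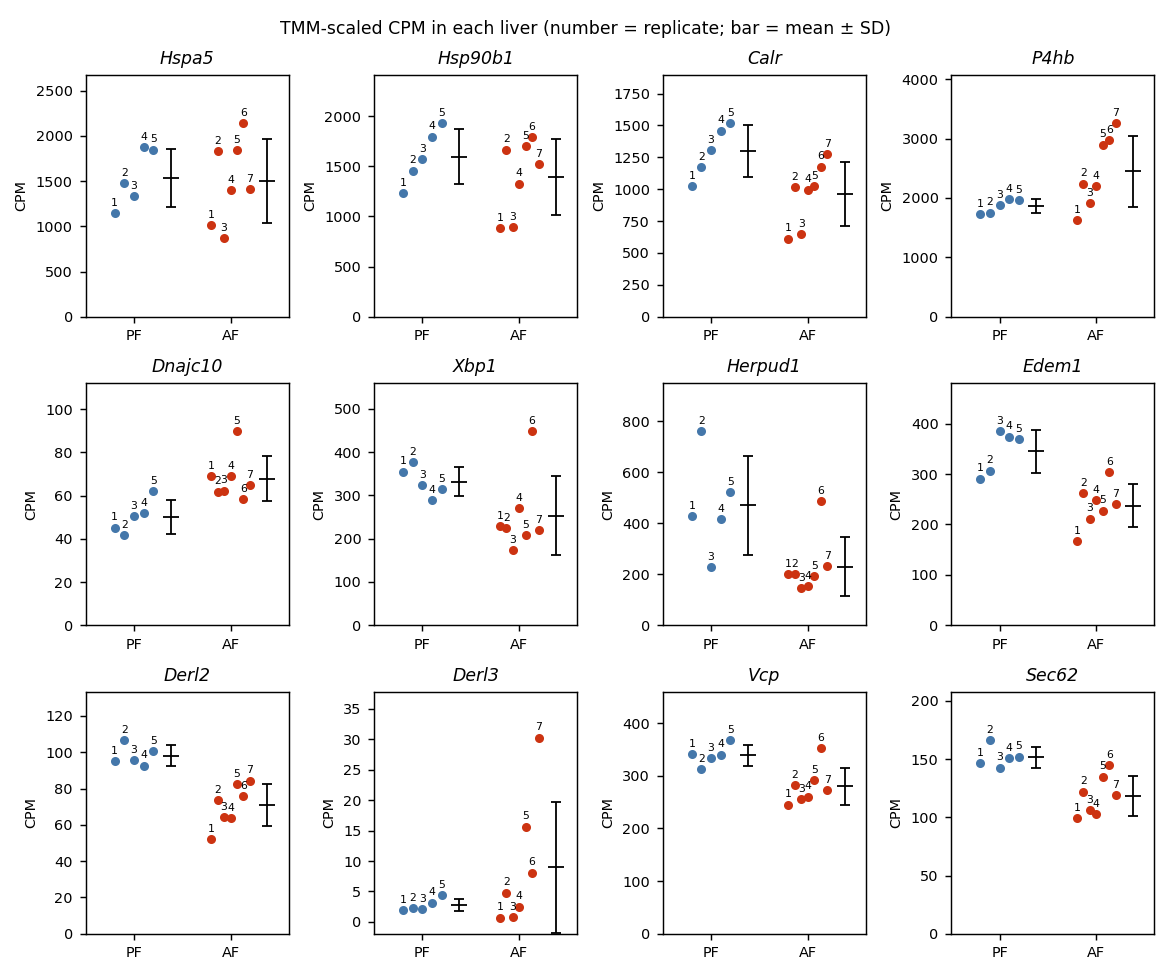
TMM-scaled CPM of 12 of the genes in every liver, with the replicate number above each point and the mean ± SD at the right of each group (PF n = 5, AF n = 7). Hspa5 and Hsp90b1 overlap widely between the groups and Derl2 does not overlap. AF replicate 6 sits at the top of the AF group for Hspa5, Hsp90b1, Xbp1, Herpud1, Edem1, Vcp and Sec62.

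Of the 11 ERAD genes 3 fell (27.3%, next to 17.8% of all genes tested), Herpud1, Edem1 and Derl2. On library totals 1 was lower (Herpud1) and 4 were higher (Edem2, Derl1, Derl3 and Os9), next to 6.62% and 45.6% of all genes tested. Herpud1 (ENSMUSG00000031770, chromosome 8, 94386438 to 94395377), which brings substrates to the ubiquitin ligase complex in the ER membrane and carries the ERSE-II shown above, was at 426, 759, 227, 415 and 522 CPM in PF replicates 1 to 5 and ranged from 144 to 487 (median 199) CPM in AF livers. For Herpud1 5 AF livers were below every PF liver, and AF replicates 6 and 7 were inside the PF range at 487 and 232 CPM. The fall was called (log2 fold change -1.03 with SE 0.321, adjusted p in edgeR 0.0217) and kept its direction on library totals (log2 fold change -0.72, adjusted p in edgeR 0.0327). Without PF replicate 2, the highest liver, the call was lost (log2 fold change -0.79, adjusted p in edgeR 0.0739). Edem1, a lectin that marks glycoproteins for degradation (ENSMUSG00000030104, chromosome 6, 108828641 to 108859356), was at 291, 307, 384, 374 and 369.6 CPM in PF replicates 1 to 5 and ranged from 167 to 304 (median 241) CPM in AF livers, with 6 of 7 AF livers below every PF liver (log2 fold change -0.54 with SE 0.139, adjusted p in edgeR 0.00852). Its relatives Edem2 and Edem3 had log2 fold changes of 0.12 and -0.08 (adjusted p in edgeR 0.342 and 0.644), and Edem2 was called higher on library totals (0.47, adjusted p 0.00349).

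The derlins, membrane proteins of the channel through which chains leave the ER, went different ways. Derl2 (ENSMUSG00000018442, chromosome 11, 71007164 to 71019841) was at 95.2, 107, 95.5, 92.6 and 101 CPM in PF replicates 1 to 5 and ranged from 52.1 to 84.3 (median 73.4) CPM in AF livers, so that all 7 AF livers were below every PF liver (log2 fold change -0.47 with SE 0.113, adjusted p in edgeR 0.00597). Its exons overlap those of Mis12 on the opposite strand, which had a log2 fold change of -0.37 (adjusted p in edgeR 0.0499), and the strand setting of the counting is not given, so reads of the 2 genes may be mixed. Edem1 and Derl2 were not past the threshold on library totals (adjusted p in edgeR 0.136 and 0.251). Derl1 had a log2 fold change of 0.29 (adjusted p in edgeR 0.0821), with 5 of 7 AF livers above every PF liver. Without AF replicate 3 it was past the threshold (log2 fold change 0.35, adjusted p in edgeR 0.0365), as it was on library totals (0.65, adjusted p 0.00369). Derl3 was at 1.92, 2.24, 2.08, 3.19 and 4.39 CPM in PF replicates 1 to 5 and at 0.700, 4.81, 0.820, 2.50, 15.7, 8.12 and 30.2 CPM in AF replicates 1 to 7. AF livers lay on both sides of the PF range, 4 above and 2 below, and the difference was not past the threshold (log2 fold change 1.69 with SE 0.812, adjusted p in edgeR 0.111). The Derl3 log2 fold change was 0.97 without AF replicate 7, -0.04 in limma-voom with sample quality weights and 1.93 on library totals, where it was called higher (adjusted p in edgeR 0.0477).

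The ubiquitin ligase Syvn1 and its partner Sel1l had log2 fold changes of -0.14 and -0.26 (adjusted p in edgeR 0.672 and 0.201), and the exons of Syvn1 overlap those of Mrpl49 on the other strand. Os9, a lectin that delivers substrates to them, had 0.00 (adjusted p in edgeR 0.983) with TMM and was called higher on library totals (0.35, adjusted p 0.00778). Vcp, the ATPase that pulls chains out of the membrane, had a mean of 339 CPM in PF (SD 20.0, n = 5) and of 280.1 CPM in AF livers (SD 35.6, n = 7) (log2 fold change -0.28 with SE 0.105, adjusted p in edgeR 0.0509). For Vcp 6 of 7 AF livers were below every PF liver, and without AF replicate 6 it was past the threshold (log2 fold change -0.34, adjusted p in edgeR 0.00747).

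In the translocon group 1 of 10 genes fell and 0 rose with TMM, next to 17.8% lower and 22.0% higher of all genes tested. Sec62, which serves the entry of short secretory proteins after translation (ENSMUSG00000027706, chromosome 3, 30792875 to 30821263), was at 146, 166, 143, 151 and 152 CPM in PF replicates 1 to 5 and ranged from 99.4 to 145 (median 119) CPM in AF livers, with 6 of 7 AF livers below every PF liver (log2 fold change -0.36 with SE 0.105, adjusted p in edgeR 0.0164). When the fit was corrected for GC content and gene length, Sec62 was no longer called (log2 fold change -0.27 next to -0.36 without the correction, adjusted p in edgeR 0.0607), and on library totals its log2 fold change was -0.01. Its partner Sec63 had a log2 fold change of -0.25 (adjusted p in edgeR 0.141). The channel subunits Sec61a1, Sec61b and Sec61g had -0.02, -0.04 and -0.18 (adjusted p in edgeR 0.916, 0.806 and 0.246). On library totals Sec61a1, Sec61b, Ssr4 and the sensor Atf6 turned to the other side of 0 and were called higher, and Ssr2 was called higher as well. Of all genes tested 45.6% were higher on that scale. The translocon-associated proteins Ssr1, Ssr2, Ssr3 and Ssr4, which help chains into the channel, had -0.22, 0.19, 0.03 and -0.04 (the lowest adjusted p in edgeR was 0.10, for Ssr2). For Stt3a, a catalytic subunit of the oligosaccharyltransferase, the log2 fold change was -0.07 (adjusted p in edgeR 0.668).

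Levels can be compared between genes as mean CPM per kb of annotated exon. On this scale P4hb was the most abundant gene, at 651 in PF and 855 in AF livers. Calr (450.2 and 335), Hsp90b1 (396 and 347) and Hspa5 (363 and 355) followed. Derl3 was the least abundant in PF livers at 1.39, and in AF livers Atf6b was, at 3.41. The exons of all annotated transcripts were counted in the length, so a gene with long but rare transcripts appears lower on this scale.

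For the folding genes livers differed widely within the AF group. Taken over the 17 folding genes, the median log2 ratio to the PF mean was -0.38 in PF replicate 1 and 0.23 in PF replicate 5, the lowest and the highest PF liver. In AF livers it was -0.81 in replicate 1 and -0.84 in replicate 3, and between -0.20 and 0.16 in the other 5. These ratios hold for the TMM scaling. In raw counts the folding genes took 0.839% of AF replicate 1 and 0.768% of AF replicate 3, the lowest AF shares, which lay inside the PF range of 0.654% to 0.999%. With TMM, AF replicates 1 and 3 were both below the other 5 AF livers in 16 of the 17 folding genes, the exception being Dnajc10, and in 7.07% of all genes tested. These 2 livers were picked out after their values were seen, and their share of all genes is given as a description. The TMM factors of the 2 libraries, 1.36 and 1.20, were among the higher ones, and their part in this pattern was not tested. Leaving out AF replicate 1 gave 2 higher genes and 4 lower ones among the 44, and leaving out AF replicate 3 gave the same numbers.

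**Figure D3:**
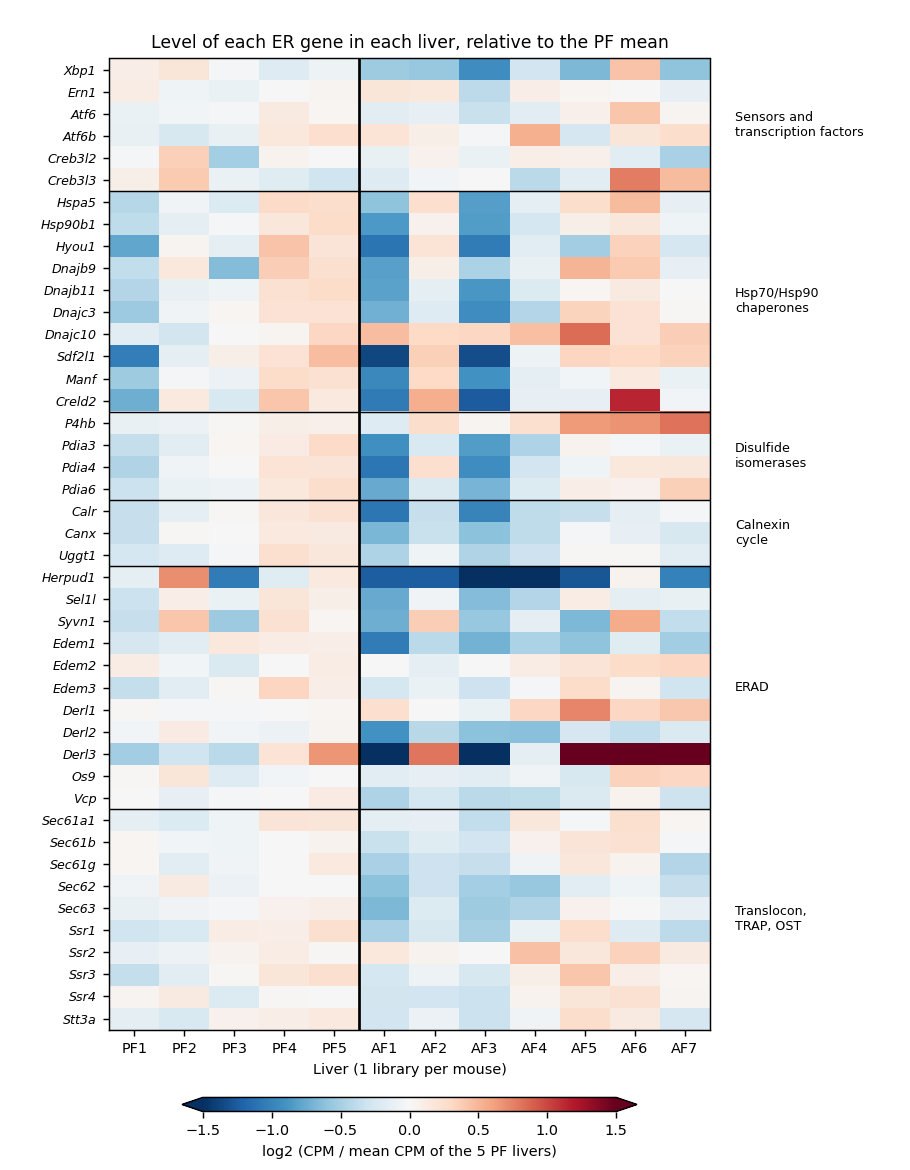
Log2 ratio of TMM-scaled CPM to the mean of the 5 PF livers, with genes in rows by function and the 12 livers in columns; colours end at -1.5 and 1.5. The chaperone, isomerase and calnexin genes are mostly blue in AF replicates 1 and 3 and mostly near white or red in AF replicate 6, while Derl3 runs from blue to red within the AF group.

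The PERK and ATF4 branch held large rises of Trib3 and Ddit3. Of 10 genes listed for this branch 4 were higher (Trib3, Ddit3, Nfe2l2 and Atf4) and 1 was lower, with a median log2 fold change of 0.34. Of all genes tested 22.0% were higher and 17.8% were lower. The other 5 genes of the branch were not called, and 4 of the 10 had a log2 fold change below 0. Trib3, a pseudokinase induced by ATF4 and CHOP, was at 2.56, 3.16, 1.17, 2.01 and 3.76 CPM in PF replicates 1 to 5 and ranged from 19.2 to 106 (median 42.5) CPM in AF livers (log2 fold change 4.22 with SE 0.443, adjusted p in edgeR 2.92e-05). Ddit3 was at 3.00, 2.61, 1.83, 3.85 and 2.62 CPM in PF livers and ranged from 6.23 to 38.4 (median 12.9) CPM in AF livers (log2 fold change 2.46, adjusted p in edgeR 9.38e-04). Every AF liver was above every PF liver for both genes, AF replicate 1 being the highest. Nfe2l2, the gene of NRF2, rose (log2 fold change 0.60, adjusted p in edgeR 0.0107), and Ppp1r15b, a phosphatase subunit that reverses the action of PERK, fell (log2 fold change -0.39, adjusted p in edgeR 0.0301). The Ppp1r15b call was lost on library totals (-0.06, adjusted p 0.637) and when PF replicate 1, 2 or 3 or AF replicate 1, 3 or 4 was left out. The gene of PERK itself, Eif2ak3, had -0.04 (adjusted p in edgeR 0.825). With TMM, AF replicate 1 had the highest Ddit3 and Trib3 of all livers and the lowest or second lowest AF level for 16 of the 17 folding genes. AF replicate 3 was also lowest or second lowest for 16 of the 17, without the highest Ddit3 or Trib3. AF replicate 1 had the largest TMM factor (1.36), and its raw share of folding genes (0.839%) was inside the PF range. It was picked out after its values were seen, and a link between these genes was not tested.

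Other genes of the same ER steps were called in both directions with TMM. Of 27 further folding genes tested 6 were higher (22.2%) and 6 were lower (22.2%), and of 24 further ERAD genes 2 were higher and 4 were lower, next to 22.0% and 17.8% of all genes. On library totals, where 45.6% of all genes were higher and 6.62% lower, these counts were 8 and 1 for folding and 12 and 2 for ERAD. Leaving out AF replicate 6 gave 7 lower ERAD genes with TMM. The largest rises among folding genes above a mean log2 CPM of 1 were those of Uggt2 (0.92), Fkbp7 (0.70) and Fkbp11 (0.61), a glucosyltransferase relative of Uggt1 and 2 prolyl isomerases (log2 fold changes, adjusted p in edgeR from 0.00206 to 0.0439). The largest falls were those of Tmx4 (-1.04), Pdia5 (-0.63) and Prdx4 (-0.58), which are thiol enzymes of the ER (adjusted p in edgeR from 2.09e-06 to 0.0497), and of these Tmx4 alone was called on library totals. On the log2 scale Rnf185 (0.58) and Tor1a (0.52) rose and Yod1 (-1.02), Selenok (-0.61) and Ngly1 (-0.46) fell most among ERAD genes, Ngly1 without a call on library totals. Among 30 further genes of translocation and glycosylation 3 were higher and 4 were lower with TMM, and 14 were higher on library totals. Without PF replicate 3 or PF replicate 5, 1 was higher. Stt3b, the other catalytic subunit of the oligosaccharyltransferase, rose, with a mean of 126 CPM in PF (SD 15.4, n = 5) and of 195 CPM in AF livers (SD 43.0, n = 7), a change of 0.63 on the log2 scale (adjusted p in edgeR 0.00488) next to -0.07 for Stt3a. The glucosidase subunit Ganab (-0.47), the signal peptidase subunit Spcs3 (-0.56) and Tram1 (-0.42) fell most, and these 3 were not called on library totals. Of 26 genes of export from the ER 3 were higher and 5 were lower with TMM, and 16 were higher and 1 was lower on library totals. Leaving out PF replicate 2, 4 or 5 or AF replicate 1 or 3 gave 3 lower export genes. The named ones above the same mean level were Tmed3 (0.70) and Sec24b (0.30) among those that rose and Sec16b (-0.72), Sec24a (-0.65) and Mia2 (-0.49) among those that fell, of which Sec16b was called on library totals. Of 7 other sensors and factors tested only Creb3l1 passed with TMM, and 4 on library totals (Creb3l1 1.27, adjusted p in edgeR 0.00843).

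**Figure D4:**
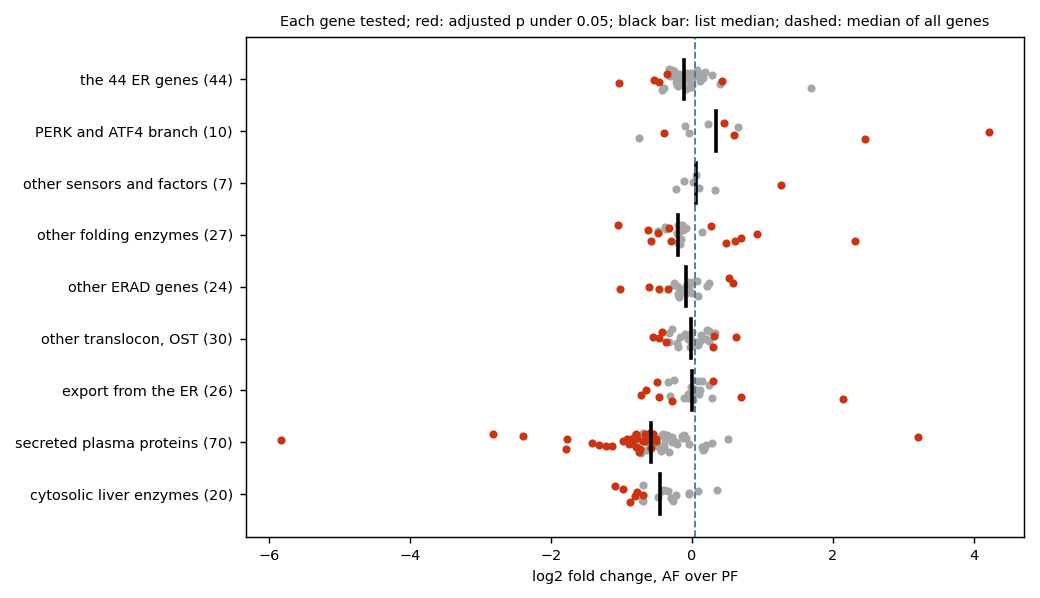
Log2 fold change of AF over PF for every tested gene of the 44 and of 8 further lists, with the number of genes tested in brackets; red points passed the adjusted p of 0.05, black bars are list medians and the dashed line is the median of all genes tested. The bar of the secreted plasma proteins lies at -0.58 and that of the 44 genes at -0.11.

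Many of the plasma proteins that pass through this machinery were lower. Of 70 genes of secreted liver proteins tested 31 fell (44.3%) and 1 (Apoa4, 1.43%) rose, next to 17.8% and 22.0% of all genes. Their median log2 fold change was -0.58. On library totals 20 fell and 4 rose, next to 6.62% and 45.6% of all genes, with a median of -0.26. Leaving out PF replicate 1 or PF replicate 2 lowered the count of falls with TMM to 20 in each case. Serpina1e, a protease inhibitor, F11, coagulation factor XI, and Serpina3k, a serpin, fell most, with log2 fold changes of -5.83, -2.83 and -2.40 (adjusted p in edgeR 1.40e-04, 5.09e-07 and 0.00537). Both serpins have close copies in the genome, so reads may be split among relatives. Albumin had a mean of 89801 CPM in PF (SD 14949, n = 5) and of 59186 CPM in AF livers (SD 17062, n = 7) without passing the test (adjusted p in edgeR 0.164). Of 20 enzymes that hepatocytes make but do not secrete 6 fell, Tat, Tdo2 and Cps1 most, with a median of -0.45 against -0.58 for the secreted proteins, and the difference was not tested. On library totals 4 of the 20 enzymes were lower and 1 was higher, next to 6.62% and 45.6% of all genes.

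Raw counts compare the RNA of the folding genes with that of their clients. The counts of folding genes per 1000 counts of secreted protein genes are free of any scaling. The percentages of all counts on genes are on the scale of library totals, where 45.6% of all genes tested were higher. The 17 folding genes took 0.856% of all counts on genes in PF (SD 0.148, n = 5) and 1.02% in AF livers (SD 0.168, n = 7), with 5 of 7 AF livers above every PF liver. P4hb made up most of this difference, with 0.162% in PF (SD 0.0148, n = 5) and 0.266% in AF livers (SD 0.0428, n = 7), all 7 AF livers being above every PF liver. With TMM, P4hb in AF replicate 1 was below every PF liver (1632 CPM, PF livers 1730 to 1976 CPM), and P4hb was not called (adjusted p in edgeR 0.110). The other 16 took 0.694% (SD 0.135) and 0.750% (SD 0.136), a difference within the spread between livers. The 70 secreted protein genes took 27.9% of all counts on genes in PF (SD 2.05, n = 5) and 23.2% in AF livers (SD 2.11, n = 7), with 5 of 7 AF livers below every PF liver. Per 1000 counts of secreted protein genes there were 22.0, 25.9, 34.5, 37.4 and 35.4 counts of folding genes in PF replicates 1 to 5, and 39.4, 44.2, 34.6, 45.4, 63.4, 41.0 and 40.6 in AF replicates 1 to 7. In 6 of 7 AF livers this number was above every PF liver, and AF replicate 3 was inside the PF range. The mean was 31.0 in PF (SD 6.70, n = 5) and 44.1 in AF livers (SD 9.18, n = 7), a ratio of 1.42. Without albumin in the list the ratio was 1.41, and all 7 AF livers were above every PF liver. Without P4hb among the folding genes it was 1.29, with 3 of 7 AF livers above every PF liver. No test was made on these sums, since the genes were chosen with earlier results of these data known. They describe RNA and not the amount of protein folded or released.

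**Figure D5:**
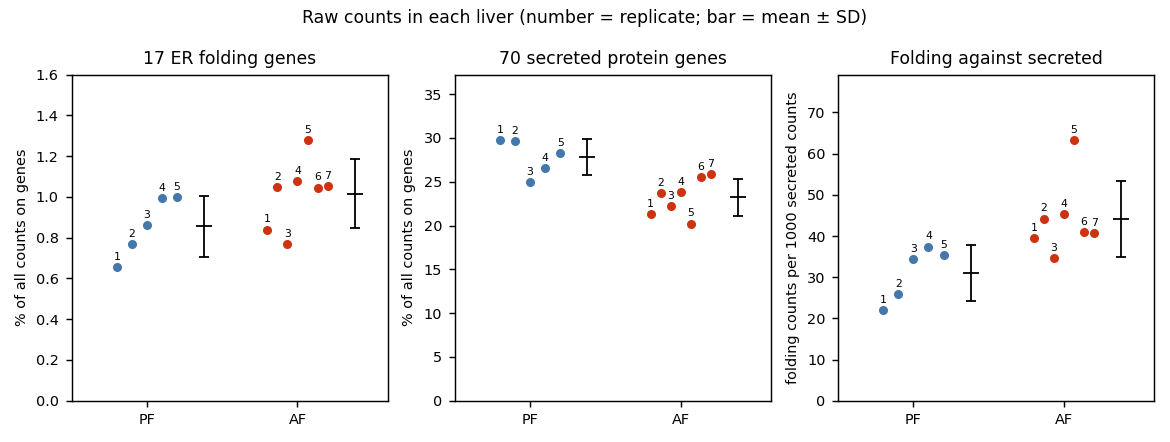
Percentage of all counts on genes taken by the 17 ER folding genes and by 70 secreted protein genes, and folding counts per 1000 secreted counts, in each liver (replicate number above the point, mean ± SD at the right, PF n = 5, AF n = 7). In the right panel 6 of 7 AF livers sit above every PF liver.

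Markers of cells other than hepatocytes moved as well. Of 14 Kupffer cell and macrophage markers 11 were higher (sum in PF livers 1022 to 1609 CPM, in AF livers 1921 to 5345 CPM). Of 10 markers of stellate cells and fibroblasts 9 were higher (179.7 to 439 CPM and 387 to 1132 CPM), and of 5 bile duct markers tested 4 were higher (49.6 to 244 CPM and 70.5 to 1095 CPM). Of 12 hepatocyte markers 6 were lower and their summed level was 104583 to 151739 CPM in PF and 50824 to 106106 CPM in AF livers, with every marker present in both groups. Plasma cells are rich in ER chaperones and in Derl3. Of 11 B and plasma cell markers tested 4 were lower and 1 (Sdc1, which hepatocytes also make) was higher, and none was at 0 in all livers (summed level 239 to 586 CPM and 229 to 345 CPM). Jchain, which joins antibody chains, was at 2.00 CPM in AF replicate 7 and 6.24 CPM in AF replicate 5, the livers with the highest Derl3, against 7.46 to 34.3 CPM in PF livers. Jchain is 1 of 12 markers listed, and these livers were picked by their Derl3 values, so this is a description. Of the 11 markers tested 9 had a log2 fold change below 0 and 2 above it. A link of plasma cells to Derl3 was not tested. Neutrophil markers ran from 65.5 to 1164 CPM in PF and 49.6 to 230.4 CPM in AF livers. T and NK cell markers had 1 of 10 lower (9.65 to 17.6 CPM and 6.07 to 11.2 CPM), and endothelial markers 1 of 8 higher (188 to 388 CPM and 245 to 405 CPM). On library totals 6 of the 8 endothelial markers were higher, and 5 of the 12 hepatocyte markers were lower, next to 45.6% higher and 6.62% lower of all genes. The part of these cells in the levels of the 44 genes was not tested.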

How the data were processed

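Poly-A RNA was prepared from whole livers by the authors (TRIzol extraction), and untrimmed reads, checked with FastQC 0.10.1, were aligned to mm10 (GRCm38) with TopHat2 2.0.13. They deposited raw counts per Ensembl gene, made with HTSeq 0.10.0 per the labels, without normalization. Annotation and strand setting are not given in the sources used here. Columns were assigned by the group and replicate number in their names. Symbols came from GENCODE M21, which uses the same assembly (54165 of 54232 IDs named). Libraries held 24129900 to 30578639 counts on genes. For a gene at 0 the floor is 3 counts (counting error only). The lowest ratio of observed difference to counting noise within groups was 20.2 over 31 pairs, so no library was a repeat.

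Counts were compared with edgeR 4.0.16 (TMM, filter on low counts by group, quasi-likelihood test, Benjamini-Hochberg over 14168 genes, threshold 0.05) in R 4.3.3. Intervals are 95% from the fitted standard error, derived from the F statistic. The authors' Cuffdiff2 test needs reads and was not repeated. Alternatives were DESeq2 1.42.0, limma 3.58.1 (voom with sample quality weights), RLE and upper-quartile factors, library totals, other filters on low counts, a correction for GC content and length (known for 99.9% of the genes tested), thinning, the replicate number as a block, and each library left out. Same-numbered PF and AF livers were not paired, since their deviations from the group means correlated at -0.07 to 0.12. Promoter windows are RefSeq's. The fits were tested on simulated data. A planned look at protein ends had no sequence file and was not made. Members and lists were chosen with earlier results of these data known. The text names all 44 genes and, of the other lists, up to 3 called genes in each direction whose average log2 CPM reached 1, plus Alb and defining markers. Eif2ak3 and the genes that overlap members were added after their values were seen.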

Additional observations from a re-analysis of the deposited data

Results flagged for a closer look

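Each of the 44 genes was searched for 1 liver far from the rest of its group by Dixon's criterion, which chance passes in about 1 of 20 groups, or 4.4 of 88, and 4 of 88 passed. In 3 of them it was AF replicate 6, with 447 CPM of Xbp1, 487 CPM of Herpud1 and 352 CPM of Vcp, each the highest AF value. AF replicate 5 was the highest AF liver for Dnajc10, with 89.7 CPM. Without AF replicate 6 the log2 fold changes of Xbp1 and Vcp were -0.59 and -0.34, both past the threshold as lower (adjusted p in edgeR 0.00189 and 0.00747).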

How the results depend on the processing

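Over 22 alternatives and 44 genes, 916 of 968 log2 fold changes stayed on their side of the threshold without a called change of direction, 43 gained and 5 lost the call, and 4 turned over. All 4 that turned over came from library totals without TMM, where the log2 fold changes were 0.32 for Atf6, 0.33 for Sec61a1, 0.31 for Sec61b and 0.31 for Ssr4. On that scale 14 of the 44 genes were higher and 1 was lower, with 6458 genes higher and 938 lower among all genes, against 3116 and 2519 with TMM. Upper-quartile factors gave 3 higher members. DESeq2 gave 7 lower members and limma-voom with sample quality weights gave 15. With the replicate number as a block 13 were lower and 1 was higher, but the numbers are not known to pair the mice, and 1 of 5 PF livers correlated best with its own number. DESeq2, limma-voom and the block each also called more of all genes lower than the 2519 above. The median log2 fold change of the 44 minus that of all genes was -0.15 in edgeR with TMM and -0.15 in DESeq2. It was -0.31 in limma-voom and -0.24 with the block, so in these fits the 44 lay further below all genes. Leaving out single libraries gave 1 to 2 higher and 3 to 6 lower members, with 2 higher without AF replicate 1 or 3, 3 lower without PF replicate 2 and 6 lower without AF replicate 6. The ratio of folding to secreted counts (AF over PF) was lowest without AF replicate 5, at 1.32, of all libraries left out in turn, and 1.29 without P4hb, an alternative chosen after seeing the data. The cause of these shifts was not tested. Derl3 had the fewest reads, 2202 in all, and the widest interval of the 44 genes.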
